A study of Mus musculus with 12 samples.

Results

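The genes described here are 8 signals and marks of the adrenal capsule and of the Wnt and hedgehog pathways, Tcf21, Gli1, Rspo3, Wnt5a, Fzd7, Wif1, Ptch1 and Gas1, out of 6986 genes with a named probeset. They were chosen by gene symbol, as the signals that renew the adrenal cortex from the capsule, and each was measured by 1 probeset. These genes and the gene lists used below were chosen with earlier results of these data known. The shares of them that were called are therefore descriptions. Whole adrenal glands of 4 groups of mice were compared, namely KK/HlJ males (KK-M), C57BL/6J males (C57-M), KK/HlJ females (KK-F) and C57BL/6J females (C57-F). KK/HlJ, which the sample labels spell KK/HIJ, is an inbred strain. The paper describes KK mice as insulin resistant and moderately hyperglycemic on chow, and as used to study prediabetes. C57BL/6J is the inbred strain that KK/HlJ was set against. All mice were kept on standard chow and killed at 21 weeks of age by the labels (the study's methods put the end slightly earlier). The paper describes an insulin tolerance test and a fasting glucose reading before that. Behavioral results on the strains are cited from its authors' earlier study. Adrenal RNA of all mice of a group was combined into 1 pool, and each pool was applied to 3 Affymetrix Mouse Gene 2.0 ST arrays, which gave 12 arrays. The 3 arrays of a group were therefore repeat measurements of 1 pool, and each p-value below covers the spread between arrays and not that between mice.

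The adrenal cortex is wrapped in a mesenchymal capsule whose cells help to renew it. In mice, capsule cells that express Gli1, a transcription factor switched on by hedgehog signaling, receive hedgehog ligand from the outer cortex and can give rise to steroid-producing cells, whereas Tcf21 marks capsule cells that in the adult give rise to stromal cells. The capsule also secretes the R-spondin RSPO3, which binds LGR receptors and removes the ubiquitin ligases RNF43 and ZNRF3 from the cell surface, so that Wnt receptors of the Frizzled family stay there and beta-catenin signaling in the zona glomerulosa, the aldosterone-producing outer layer, is kept up.

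Tcf21 was lower in KK than in C57 adrenals in both sexes. Rspo3 was called lower in KK-M than in C57-M and higher in C57-M than in C57-F. It also lay lower in KK-F than in C57-F, by less than the fold change asked for. Fzd7 was called lower in KK-F than in C57-F, a call that was lost when some single arrays were left out. Values are log2 expression after robust multi-array averaging (RMA), and a gene was called different where the fold change was at least 1.4 (0.485 on the log2 scale) and the adjusted p of the limma test was under 0.05 (Benjamini-Hochberg over all genes tested). Of the 8 genes, 7 passed the filter on low values, a mean of at least 4 in at least 1 group, and all 7 did so through all 4 groups. Wif1 did not pass. Between the strains in males (KK-M v C57-M), 2 of the 7 were called, both lower, where 20.4% of all tested genes were called and 13.4% were called lower. Between the strains in females (KK-F v C57-F), 2 of the 7 were called, both lower, against a background of 18.6% called and 9.06% called lower. Between the KK sexes (KK-M v KK-F), 0 of the 7 were called with limma, where 18.8% of all genes were, and 3 had an unadjusted p under 0.05. Between the C57 sexes (C57-M v C57-F), 1 of the 7 was called and was higher, where 7.07% of all genes were called and 4.33% called higher. Averaged over the sexes, the strain difference was called for 2 of the 7, against 15.5% of all genes. The sex difference averaged over the strains was called for 0 of the 7 with limma (8.61% of all genes), with 3 at an unadjusted p under 0.05, and the interaction of strain with sex for 0 of the 7 (13.9%), with 1. The 3 values of both groups did not overlap for 3 of the 7 genes between the strains in males (47.6% of all genes) and for 4 in females (48.4%), and for 2 between the sexes of KK (46%) and 2 between those of C57 (32.2%). These counts rest on few genes, and the results below are those of single genes.

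The 250 bases before the transcription start of Tcf21 and Fzd7, called genes with a promoter in the RefSeq table used (build GRCm38.p6), are shown because the factors of these pathways act at such stretches. The Tcf21 stretch lies at chr10:22820144-22820393 on the minus strand and the Fzd7 stretch at chr1:59481897-59482146 on the plus strand, both written 5′ to 3′ and ending at the base before the start.
Tcf21: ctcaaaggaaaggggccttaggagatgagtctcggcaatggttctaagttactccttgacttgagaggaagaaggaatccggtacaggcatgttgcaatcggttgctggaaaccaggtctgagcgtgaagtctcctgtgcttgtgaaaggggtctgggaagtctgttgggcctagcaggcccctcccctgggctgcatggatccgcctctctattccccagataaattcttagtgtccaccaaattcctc
Fzd7: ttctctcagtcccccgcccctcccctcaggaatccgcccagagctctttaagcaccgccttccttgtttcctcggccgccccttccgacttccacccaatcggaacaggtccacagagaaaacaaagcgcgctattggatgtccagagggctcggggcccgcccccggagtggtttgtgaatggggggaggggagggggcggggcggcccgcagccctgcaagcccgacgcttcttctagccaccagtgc
Promoter windows of 250 bases before to 50 bases after the start were found for 5 of the 8 genes (Tcf21, Fzd7, Wif1, Gas1 and Ptch1). They were searched on both strands for GACCACCCA, the consensus site of the GLI factors, CTTTGAT and CTTTGAA, sites of the TCF/LEF factors of Wnt signaling, CAGCTG, an E-box that TCF21 can bind, and CAAGGTCA, a site of the steroidogenic factor NR5A1. None of these letters occurred in the 5 windows, so no part of the sequences is in capitals. Among 32851 promoter windows, 0.253% held GACCACCCA, 3.73% CTTTGAT, 5.13% CTTTGAA, 16.3% CAGCTG and 1.56% CAAGGTCA.

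The tissue matched its label, since Cyp11b1, the enzyme of the last step of corticosterone synthesis, lay between 12.43 and 12.87 on every array and the mean of 6 zona glomerulosa markers lay between 9.32 and 10.47. Markers of tissues outside the gland differed between the pools. The mean log2 level of 11 skeletal muscle markers was 5.67 to 5.91 in KK-M, 3.61 to 3.72 in C57-M, 3.52 to 3.54 in KK-F and 3.58 to 3.68 in C57-F. That of 10 hepatocyte markers was 3.82 to 4.8 in KK-M, 6.4 to 6.52 in C57-M, 3.85 to 3.93 in KK-F and 6.95 to 7.05 in C57-F. That of 6 adipocyte markers was 6.85 to 6.9 in KK-M, 7.14 to 7.34 in C57-M, 6.02 to 6.09 in KK-F and 7.01 to 7.11 in C57-F. Within the gland, 5 markers of the medulla averaged 10.05 to 10.16 in KK-M, 9.46 to 9.55 in C57-M, 9.78 to 9.84 in KK-F and 9.09 to 9.21 in C57-F, and 2 markers of the X-zone, the transient inner cortex of mice, 5.23 to 6.07 in KK-M, 4.55 to 4.8 in C57-M, 10.36 to 10.44 in KK-F and 7.75 to 7.89 in C57-F. The balance of calls depended on scaling: in KK-M v C57-M 311 genes were higher and 591 lower, or 406 and 415 after renewed quantile normalization, and in KK-M v KK-F 321 were higher and 510 lower, or 497 and 312. The median difference of all genes in KK-M v KK-F moved with it from -0.059 to 0.06. Relative to that median, Rspo3 was 0.35 and Ptch1 0.44 above it as deposited, and 0.38 and 0.46 above it after renewed normalization.

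**Figure D1:**
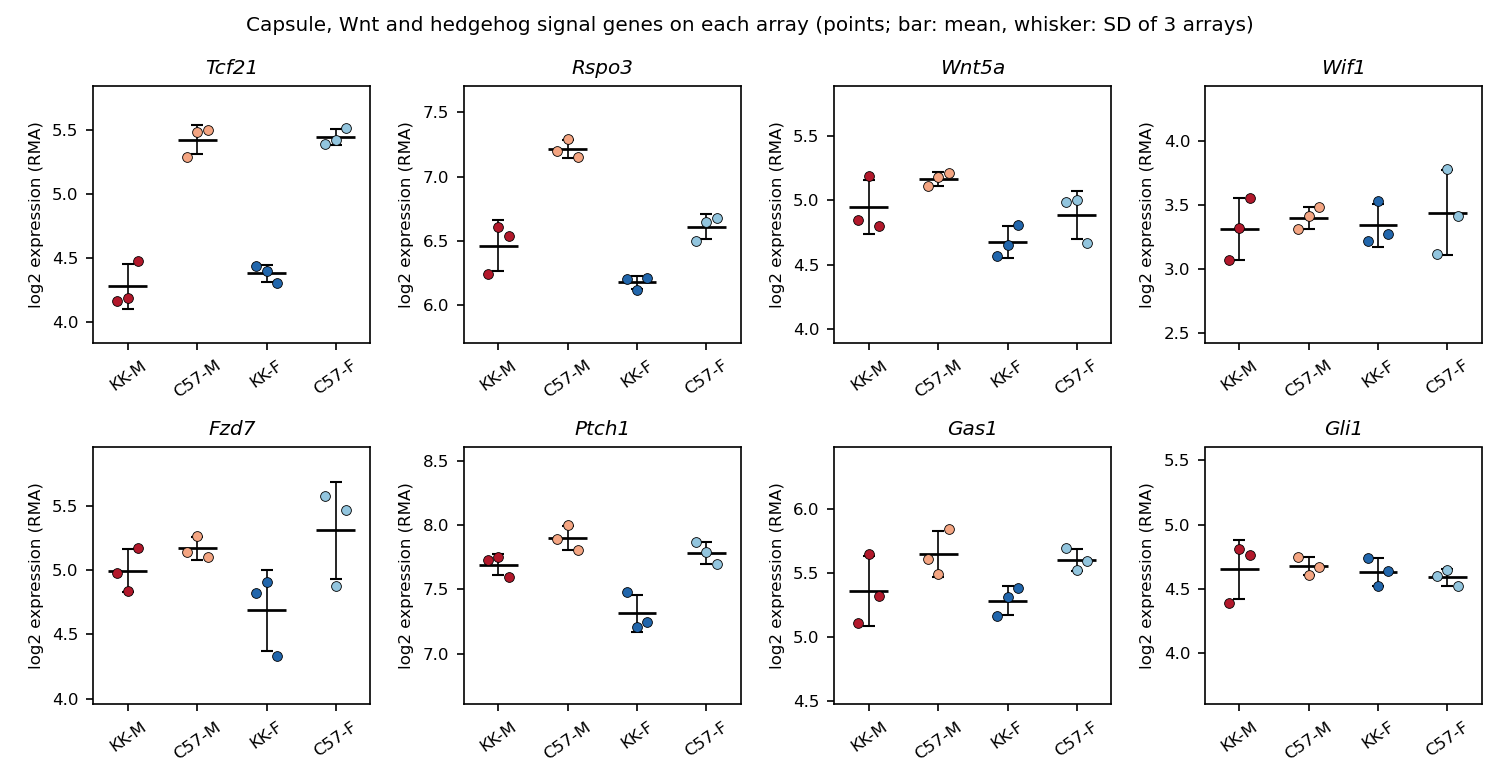
Log2 expression (RMA, vertical axes) of the 8 genes on each of the 3 arrays of KK-M, C57-M, KK-F and C57-F, with the mean as a bar and the SD of 3 arrays as a whisker. The Tcf21 points of both KK groups lie between 4.17 and 4.48 and those of both C57 groups between 5.29 and 5.51, and the Gli1 points of all 4 groups lie between 4.39 and 4.81.

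Tcf21 encodes a basic helix-loop-helix factor of mesenchymal cells and marks the stromal lineage of the capsule. Its log2 values were 4.17, 4.19 and 4.48 in KK-M, against 5.29, 5.48 and 5.5 in C57-M. In females they were 4.44, 4.4 and 4.31 in KK-F, against 5.39, 5.42 and 5.51 in C57-F. Every KK array lay below every C57 array, whereas the sexes of 1 strain overlapped. The strain difference was -1.14 ± 0.1 in males (SE, 2.21-fold lower in KK-M, limma adjusted p = 3.2e-06) and -1.06 ± 0.1 in females (2.08-fold lower in KK-F, adjusted p = 6.2e-06). The order of the means was C57-F, C57-M, KK-F and KK-M, and only the step between C57-M and KK-F, of 1.04, separated ranges that did not overlap. The difference between the sexes was -0.1 in KK (adjusted p = 0.48) and -0.02 in C57 (adjusted p = 0.92). The strain difference in males minus that in females was -0.09, which did not pass the test (adjusted p = 0.71), and averaged over the sexes it was -1.1 ± 0.07 (adjusted p = 8.2e-08). Of these bulk values, fewer cells of a type and less RNA per cell cannot be told apart. Tcf21 was read by 1 probeset, and whether its probes match the KK and C57 sequences equally well was not tested. All of its KK values, from 4.17 to 4.48, lay little above the filter of 4, which limits what can be said of the size of the difference.

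Markers of fat tissue, whose precursor cells can also express Tcf21, were lower in KK in females and mostly so in males. Of the 6 adipocyte markers tested, 4 were called lower in KK-M than in C57-M and 6 in KK-F than in C57-F, and their mean levels stand above. Over all genes, 13.4% and 9.06% were called lower in these comparisons. Gpd1, the cytosolic glycerol-3-phosphate dehydrogenase that is high in fat, differed by -0.77 in males and -1.33 in females. In males Slc2a4 went the other way, with means of 6.64 in KK-M and 6.23 in C57-M. Trarg1 hardly differed there (7.58 and 7.6), and neither was called. Unlike Tcf21, the adipocyte markers also differed between the sexes of KK, where 3 of the 6 were called higher in males. In that comparison 18.8% of all genes were called in either direction. The part of fat tissue in the Tcf21 difference was not tested.

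Gli1, the hedgehog-dependent mark of capsule progenitors, was not called in any comparison. Its log2 values were 4.39, 4.81 and 4.76 in KK-M, against 4.75, 4.61 and 4.67 in C57-M. They were 4.74, 4.52 and 4.64 in KK-F, against 4.6, 4.65 and 4.52 in C57-F. The ranges of all neighbours in the order of means, C57-M, KK-M, KK-F and C57-F, overlapped. The strain difference was -0.02 in males (95% interval -0.26 to 0.22, adjusted p = 0.91) and 0.04 in females (95% interval -0.2 to 0.28, adjusted p = 0.81). Both intervals lie inside a fold of 1.4 in either direction. All Gli1 values lay little above the filter of 4, however, which limits what can be seen of a difference in this gene.

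**Figure D2:**
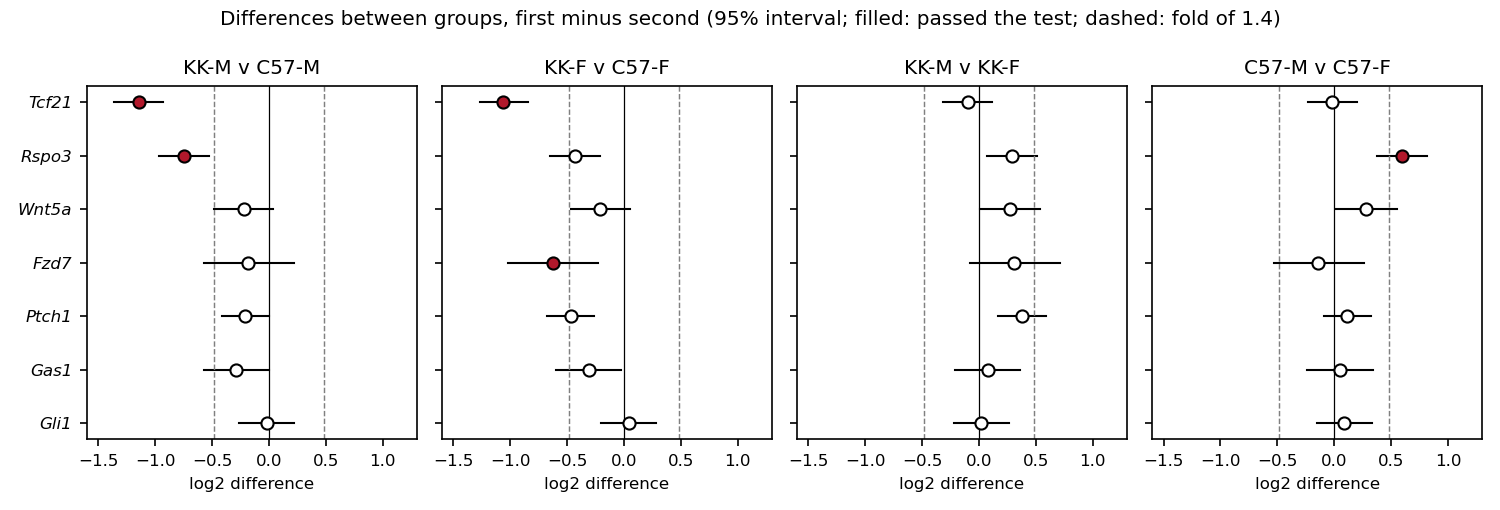
Log2 difference (horizontal axes, first group minus second) of the 7 tested genes for the strains in males and in females and for the sexes in KK and in C57, as points with 95% intervals of the limma fit, filled where called, with dashed lines at a fold of 1.4. Tcf21 stands at -1.14 and -1.06 in the strain comparisons and near 0 in the sex comparisons, while Rspo3 runs from -0.75 in KK-M v C57-M to 0.6 in C57-M v C57-F.

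Rspo3, the capsule's R-spondin, differed with both strain and sex. Its log2 values were 6.24, 6.61 and 6.54 in KK-M, against 7.2, 7.29 and 7.15 in C57-M. They were 6.2, 6.12 and 6.21 in KK-F, against 6.5, 6.65 and 6.68 in C57-F. The C57-M arrays were the highest and the KK-F arrays the lowest, with no overlap with any other group, and only KK-M and C57-F overlapped. Rspo3 was 1.68-fold lower in KK-M than in C57-M (-0.75 ± 0.1, adjusted p = 0.00013). In females the difference was -0.43 (adjusted p = 0.006), a fold of 1.35 that stayed under the fold threshold and passed it, at -0.49, without C57-F array 1. The C57 sexes differed by 0.6 ± 0.1, 1.52-fold higher in C57-M (adjusted p = 0.00063), and the KK sexes by 0.29 (adjusted p = 0.049), under the fold threshold. The strain difference in males minus that in females was -0.31, with an unadjusted p of 0.048 and an adjusted p of 0.15, so a different strain effect in the 2 sexes was not shown. Averaged over the sexes the strain difference was -0.59 (adjusted p = 2.3e-05), and averaged over the strains the sex difference was 0.45 (adjusted p = 0.00043), under the fold threshold.

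Zona glomerulosa markers, which mark the layer that receives RSPO3, had a mean level of 10.14 to 10.2 in KK-M, 10.44 to 10.47 in C57-M, 9.32 to 9.4 in KK-F and 9.88 to 9.92 in C57-F, lower in KK within each sex and higher in males within each strain, as the Rspo3 values were. Of the 6 genes, 2 were called lower in KK-M than in C57-M, 3 lower in KK-F than in C57-F, and 3 higher in males of each strain. Over all genes, 13.4% and 9.06% were called lower between the strains, and 4.33% higher in C57-M than in C57-F. In KK-M v KK-F, 18.8% of all genes were called in either direction. Vsnl1, a calcium sensor enriched in the zona glomerulosa, differed by -0.76 in KK-M v C57-M and -2.05 in KK-F v C57-F. Kcnk9, a potassium channel subunit, lay the other way between the strains, by 0.29 in males and 0.36 in females, both under the fold threshold. Cyp11b2, aldosterone synthase, differed by 1 in KK-M v KK-F and 0.85 in C57-M v C57-F, while its strain differences of -0.13 in males and -0.28 in females were not called. Whether these values and those of Rspo3 depend on one another was not tested.

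The receptors of the R-spondins and the ligases they act on were measured beside it. LGR5, a stem cell receptor for R-spondins, was called higher in KK than in C57 in both sexes. The Lgr5 values of its brighter probeset were 9.09, 9.22 and 9.19 in KK-M, against 8.15, 8.18 and 8.14 in C57-M, a difference of 1.01 ± 0.08 (adjusted p = 9.3e-07). They were 8.72, 8.71 and 8.73 in KK-F, against 7.56, 7.73 and 7.64 in C57-F, a difference of 1.08 ± 0.08 (adjusted p = 5.3e-07). The second Lgr5 probeset differed by 1.03 in males, which was called, and by only 0.12 in females, which was not, so the female difference rests on 1 of 2 probesets. Between the sexes, the brighter probeset of Lgr5 differed by 0.51 in C57, which was called and fell to 0.48, 0.47 and 0.4 with median centring, without C57-F array 1 and with the probesets averaged, each under the fold threshold. In KK it differed by 0.45 (adjusted p = 0.00074), under the threshold, and was called with median centring (0.55), with the probesets averaged (0.82) and without KK-M array 1 (0.49). The second Lgr5 probeset differed between the sexes by 1.19 in KK, which was called, and by 0.28 in C57, which was not. The means of the medulla and X-zone markers given above were also higher in KK within each sex, though in males only 1 of the 2 X-zone markers was called. Between the sexes, the medulla mean was higher in males of both strains, as the Lgr5 means were, while the X-zone mean was higher in females. The part of either cell type in the Lgr5 values was not tested.

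Rnf43 and Znrf3 encode the ubiquitin ligases that clear Frizzled receptors. Rnf43 had 4.58, 4.39 and 4.01 in KK-M, against 4.91, 4.79 and 5.01 in C57-M, and was called lower (-0.58 ± 0.13, adjusted p = 0.0041), though not without KK-M array 3, the lowest (-0.42). In females it had 4.88, 4.79 and 4.79 in KK-F, against 4.73, 4.72 and 4.93 in C57-F, a difference of 0.03 (adjusted p = 0.89). Between the KK sexes, Rnf43 was lower in males (-0.5, adjusted p = 0.01), a call lost with renewed quantile normalization (-0.39), with median centring (-0.4), and without KK-M array 3 (-0.34) or KK-F array 1 (-0.47). The Znrf3 values were 6.41, 6.54 and 6.34 in KK-M, against 6.86, 6.9 and 6.85 in C57-M, a difference of -0.44 (adjusted p = 0.0013) that stayed under the fold threshold. Lgr6 was tested and not called in any of the 4 comparisons, and Rspo2 was below the filter. Of the 5 R-spondin axis genes tested, Rspo3 among them, 3 were called in KK-M v C57-M and 1 in KK-F v C57-F. Over all genes, 20.4% and 18.6% were called there.

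**Figure D3:**
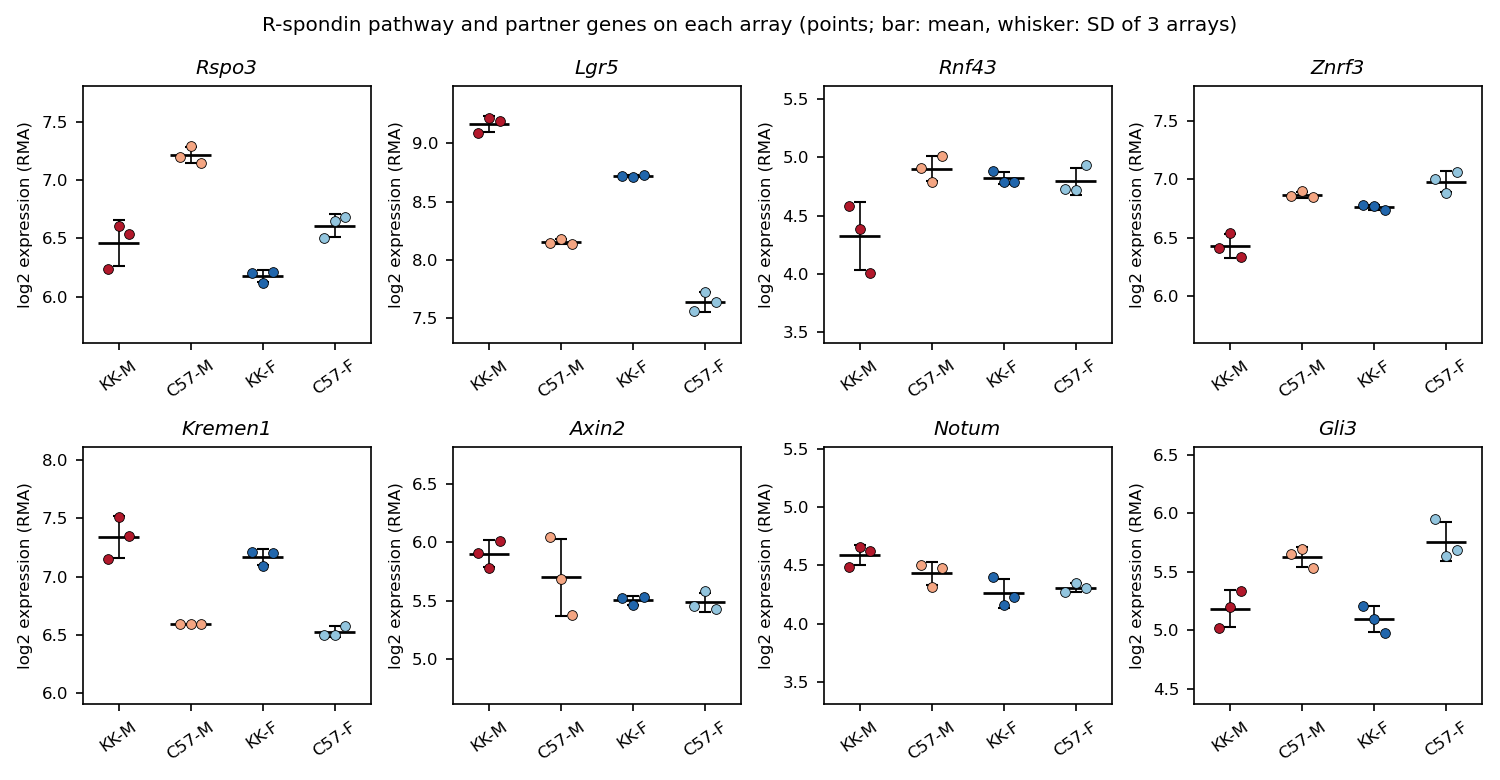
Log2 expression (RMA, vertical axes) of Rspo3, its partners Lgr5, Rnf43 and Znrf3, the Wnt inhibitors Kremen1 and Notum, the Wnt target Axin2 and the hedgehog factor Gli3 on each array of the 4 groups, with mean and SD of 3 arrays. The Lgr5 and Kremen1 points of each KK group lie above those of the C57 group of the same sex, the Gli3 points lie below them, and the Axin2 points of C57-M spread from 5.38 to 6.04.

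Wnt5a, a ligand that acts mainly through pathways other than beta-catenin, was not called in any comparison. Its log2 values were 4.85, 5.19 and 4.8 in KK-M, against 5.11, 5.18 and 5.21 in C57-M. In females they were 4.57, 4.65 and 4.81 in KK-F, against 4.99, 5 and 4.67 in C57-F. The group ranges overlapped at each step of the order C57-M, KK-M, C57-F and KK-F. The strain differences were -0.22 (adjusted p = 0.2) and -0.21 (adjusted p = 0.22), and the sex difference averaged over the strains was 0.28 (adjusted p = 0.025), under the fold threshold. Of the 5 Wnt ligand genes tested (Wnt5a, Wnt6, Wnt9a, Wnt9b and Wnt10a), limma called 0 in each of the 4 comparisons, with 0 to 1 at an unadjusted p under 0.05, and Wnt1, Wnt3 and Wnt3a were below the filter. Wnt4, the ligand best known in the zona glomerulosa, was not analysed here.

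Fzd7 is a Wnt receptor of stem and progenitor cells. It had 4.98, 4.84 and 5.17 in KK-M, against 5.14, 5.27 and 5.1 in C57-M, and in females 4.82, 4.91 and 4.33 in KK-F, against 5.58, 4.88 and 5.47 in C57-F. The values overlapped in both sexes, since 1 KK-F array lay above the lowest C57-F array. The difference was -0.18 in males (adjusted p = 0.51) and -0.62 ± 0.18 in females, 1.54-fold lower in KK-F (adjusted p = 0.021). The female call was lost without C57-F array 1 (-0.49, adjusted p = 0.083), C57-F array 3 (-0.54, adjusted p = 0.071) or KK-F array 3 (-0.44, adjusted p = 0.088), and with only the 2 groups in the fit (adjusted p = 0.053). Over 25 alternatives it lay between -0.84 and -0.44, with adjusted p from 0.0021 to 0.088. The strain difference in males minus that in females was 0.45 (adjusted p = 0.26). Another Frizzled, Fzd6, was also called lower in KK-F (5.44, 5.01 and 5.12) than in C57-F (5.75, 5.7 and 5.68) (-0.52, adjusted p = 0.0043), and it passed the fold threshold neither without KK-F array 2 (-0.43) nor without KK-F array 3 (-0.48). Of 5 Wnt receptors tested, 2 were called lower in KK-F v C57-F and, with limma, 0 in each of the other 3 comparisons, where 0 to 1 of them had an unadjusted p under 0.05. Over all genes, 9.06% were called lower in KK-F v C57-F.

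Wif1 encodes a secreted inhibitor that binds Wnt proteins. Its values of 3.07, 3.32 and 3.55 in KK-M and 3.31, 3.41 and 3.48 in C57-M, with 3.22, 3.53 and 3.27 in KK-F and 3.12, 3.78 and 3.41 in C57-F, lay below the filter in every group and overlapped throughout. Without the filter its strain differences were -0.08 in males (adjusted p = 0.8) and -0.09 in females (adjusted p = 0.78). Other Wnt inhibitors gave brighter signals. Kremen1, a co-receptor for the DKK inhibitors, had 7.15, 7.51 and 7.35 in KK-M, against 6.59 on all 3 arrays of C57-M, and 7.21, 7.09 and 7.2 in KK-F, against 6.5, 6.5 and 6.58 in C57-F. It was higher in KK by 0.75 in males (adjusted p = 6.5e-05) and 0.64 in females (adjusted p = 0.00022). Sostdc1, a secreted antagonist of Wnt and BMP signals, had 4.54, 4.7 and 4.3 in KK-M, against 3.95, 3.63 and 4.1 in C57-M, a difference of 0.62. It had 4.26, 4.06 and 4.25 in KK-F, against 3.93, 3.86 and 4.05 in C57-F, a difference of 0.24, which was not called (adjusted p = 0.2). Sostdc1 passed the filter through the KK groups alone, so its male difference is a description with no test. Notum, an enzyme that inactivates Wnt proteins, and Sfrp4 were not called in any comparison.

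Among transducers and targets of Wnt signaling, 7 were tested and 0 were called by limma in KK-M v C57-M, with 0 at an unadjusted p under 0.05, and 1 in KK-F v C57-F. Over all genes, 20.4% and 18.6% were called in these comparisons. Axin2, a common readout of beta-catenin signaling, had 5.91, 5.78 and 6.01 in KK-M, against 6.04, 5.68 and 5.38 in C57-M, and 5.52, 5.46 and 5.53 in KK-F, against 5.45, 5.58 and 5.43 in C57-F. Its strain differences of 0.2 (adjusted p = 0.31) and 0.02 (adjusted p = 0.95) did not pass, while a dimmer second probeset differed by 0.51 in males and was called. In KK-M v KK-F, Axin2 differed by 0.4 (adjusted p = 0.042), under the fold threshold, and by 0.55 after renewed quantile normalization and 0.5 with median centring, both called. Tnfrsf19, a receptor switched on by Wnt signaling in stem cells, was lower in KK-F (6.64, 6.61 and 6.53) than in C57-F (7.1, 7.16 and 7.29) (-0.59, adjusted p = 0.00023), and lower in C57-M (6.23, 6.2 and 6.31) than in C57-F (-0.94, adjusted p = 5.3e-06). Myc was lower in C57-M (7.92, 8 and 7.89) than in C57-F (8.74, 8.43 and 8.81) (-0.73, adjusted p = 0.00011).

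Ptch1, the hedgehog receptor and itself a target that the pathway switches on, was low in KK-F. Its log2 values were 7.73, 7.75 and 7.6 in KK-M, against 7.89, 8 and 7.81 in C57-M. In females they were 7.48, 7.21 and 7.25 in KK-F, against 7.87, 7.79 and 7.7 in C57-F. The KK-F arrays lay below all others, and C57-M, C57-F and KK-M overlapped in turn. The difference in females was -0.47 ± 0.1, a fold of 1.39 just under the threshold (adjusted p = 0.0025), and that in males was -0.21 (adjusted p = 0.13). KK-M exceeded KK-F by 0.38 (adjusted p = 0.0095), which was likewise under the fold threshold and passed it, at 0.52, after renewed quantile normalization. In KK-F v C57-F, median centring gave -0.52, leaving out C57-F array 3 gave -0.51 and leaving out KK-F array 1 gave -0.55, all called. The strain difference in males minus that in females was 0.26 (adjusted p = 0.2).

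Gas1, a co-receptor that helps cells to bind hedgehog ligand, was not called. It had 5.11, 5.65 and 5.32 in KK-M, against 5.61, 5.49 and 5.84 in C57-M, and 5.16, 5.31 and 5.38 in KK-F, against 5.69, 5.52 and 5.59 in C57-F. The male groups overlapped and the female groups did not. The strain differences were -0.29 (adjusted p = 0.12) and -0.31 (adjusted p = 0.095), and their mean of -0.3 had an adjusted p of 0.019 and stayed under the fold threshold.

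Of the other hedgehog genes, Gli3, the pathway's main repressor, had 5.02, 5.2 and 5.34 in KK-M, against 5.65, 5.7 and 5.53 in C57-M, a difference of -0.44 (adjusted p = 0.0089) under the fold threshold. It had 5.21, 5.1 and 4.98 in KK-F, against 5.95, 5.64 and 5.69 in C57-F, and was called lower (-0.67 ± 0.11, adjusted p = 0.00056). In both sexes the strains did not overlap. Kif3a, a motor subunit that builds the cilium in which hedgehog signals are read, had 5.06, 4.9 and 4.82 in KK-M, against 5.81, 5.46 and 5.29 in C57-M, and was called lower (-0.59, adjusted p = 0.0021), but passed the fold threshold no longer without C57-M array 1 (-0.45). In females Kif3a was not called (-0.1, adjusted p = 0.59). Gpc5, a glypican that can bind hedgehog proteins, was above the filter in KK-F alone (4.29, 4.66 and 4.32), against 2.95, 3.53 and 2.86 in C57-F. It passed the filter only through the group where it was high, so this difference of 1.31 is a description with no test. Its means in males were 3.38 in KK-M and 3.31 in C57-M. Hedgehog ligand Ihh and the release protein Disp1 were not called, Gli2 was below the filter, and Shh, the ligand made by the outer cortex, was not analysed here. Of 11 hedgehog genes tested, 1 was called in KK-M v C57-M and 2 in KK-F v C57-F, Gpc5 among them. These were 9.09% and 18.2% of the genes, where 20.4% and 18.6% of all genes were called.

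Over the Wnt and hedgehog lists together, without the 8 genes themselves, 31 genes were tested. In KK-M v C57-M, 3 were called higher and 2 lower, and in KK-F v C57-F 3 higher and 3 lower. Together these were 16.1% and 19.4% of the genes, near the 20.4% and 18.6% of all genes, and the median differences were 0.02 and -0.05. In KK-M v KK-F, 2 were called, both lower, and in C57-M v C57-F 1 was called higher and 2 lower. Together these were 6.45% and 9.68% of the genes, where 18.8% and 7.07% of all genes were called. These counts take in Sostdc1 in KK-M v C57-M, and Gpc5 in KK-F v C57-F and in KK-M v KK-F, both of which passed the filter only through groups where they were high.

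**Figure D4:**
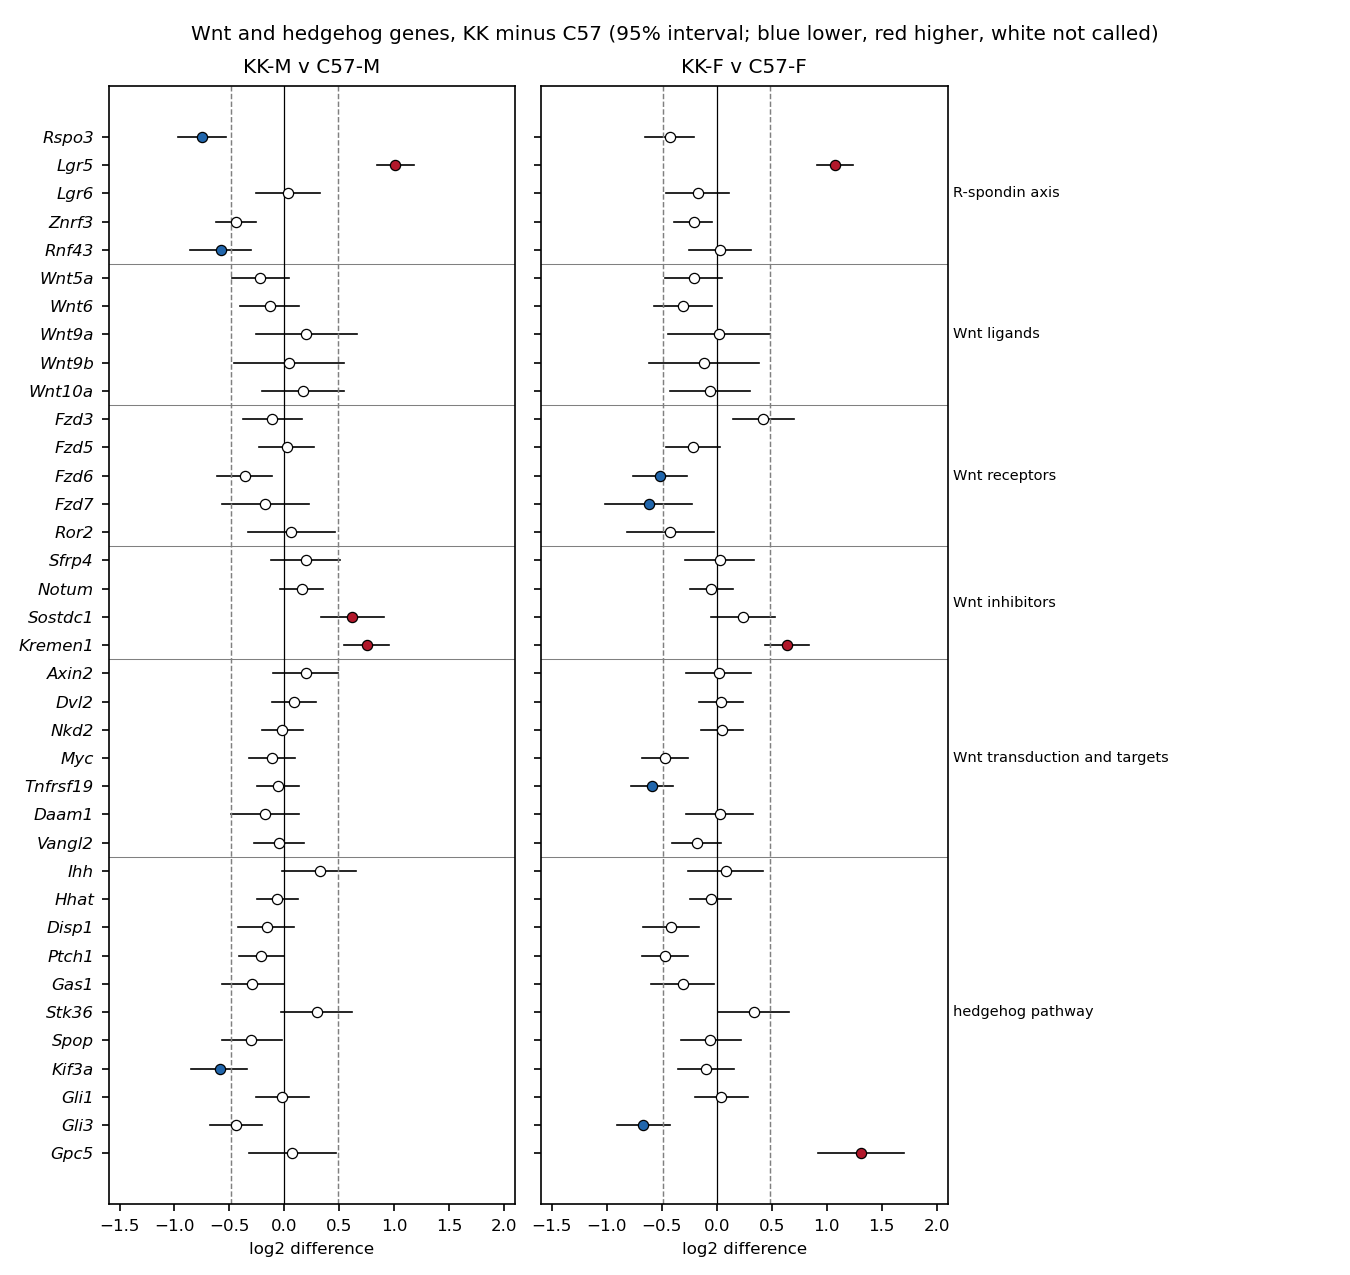
Log2 difference (horizontal axes) of the tested Wnt and hedgehog genes, KK-M minus C57-M on the left and KK-F minus C57-F on the right, as points with 95% intervals of the limma fit, colored where called, with dashed lines at a fold of 1.4. Most points are white and lie near 0, Lgr5 (1.01 and 1.08) and Kremen1 (0.75 and 0.64) are red in both sexes, and Rspo3 is blue in males (-0.75).

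Capsule and stroma genes differed in both directions between the strains. Of 18 tested, Tcf21 and Gli1 included, 2 were called higher and 3 lower in KK-M v C57-M, and 2 higher and 8 lower in KK-F v C57-F. Together these were 27.8% and 55.6% of the list, where 20.4% and 18.6% of all genes were called. The median differences of the list were 0.01 and -0.24, where those of all genes were -0.07 and 0.03. Besides Tcf21, 2 genes were called lower in KK in both sexes. Ogn, a small leucine-rich proteoglycan of connective tissue, had 7.45, 7.44 and 7.26 in KK-M, against 8.43, 8.52 and 8.41 in C57-M, and 6.74, 6.7 and 6.57 in KK-F, against 7.91, 7.86 and 7.73 in C57-F, with differences of -1.07 (adjusted p = 2.1e-06) and -1.16 (adjusted p = 1e-06). Fbln1, a matrix glycoprotein, differed by -0.66 (adjusted p = 0.0016) and -0.65 (adjusted p = 0.0018). Col6a3, a collagen VI chain, went the other way and was called higher in KK in both sexes, by 0.82 (adjusted p = 0.0016) and 1 (adjusted p = 0.00037).

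Between the sexes of KK, 10 of the 18 capsule and stroma genes were called higher and 2 lower in KK-M v KK-F, and in C57-M v C57-F 4 were called higher and 1 lower, while Tcf21 and Gli1 were called in neither. Together the calls were 66.7% and 27.8% of the list, where 18.8% and 7.07% of all genes were called. The list takes in Aspn, which passed the filter through KK-M alone, with means of 4.13 in KK-M and 3.19 in KK-F. Its difference between them is a description with no test, though the counts for KK-M v KK-F take it in. The mean level of the 16 genes other than Tcf21 and Gli1 was 6.71 to 6.86 in KK-M, 6.74 to 6.79 in C57-M, 6.2 to 6.24 in KK-F and 6.53 to 6.58 in C57-F, lowest in KK-F, as Ptch1 was. Ogn was called in all 4 comparisons, with 0.71 (adjusted p = 6.6e-05) in KK-M v KK-F and 0.62 (adjusted p = 2e-04) in C57-M v C57-F. The largest differences in KK-M v KK-F were those of Igfbp5 (1.78), Dcn (1.6), Fn1 (1.32) and Igfbp6 (0.95). In C57-M v C57-F they were those of Dpt, dermatopontin (1.12), Dcn (0.78), Igfbp5 (0.77) and Fn1, which was lower in males (-0.71). Whether the stroma genes bear on the Ptch1 values was not tested.

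**Figure D5:**
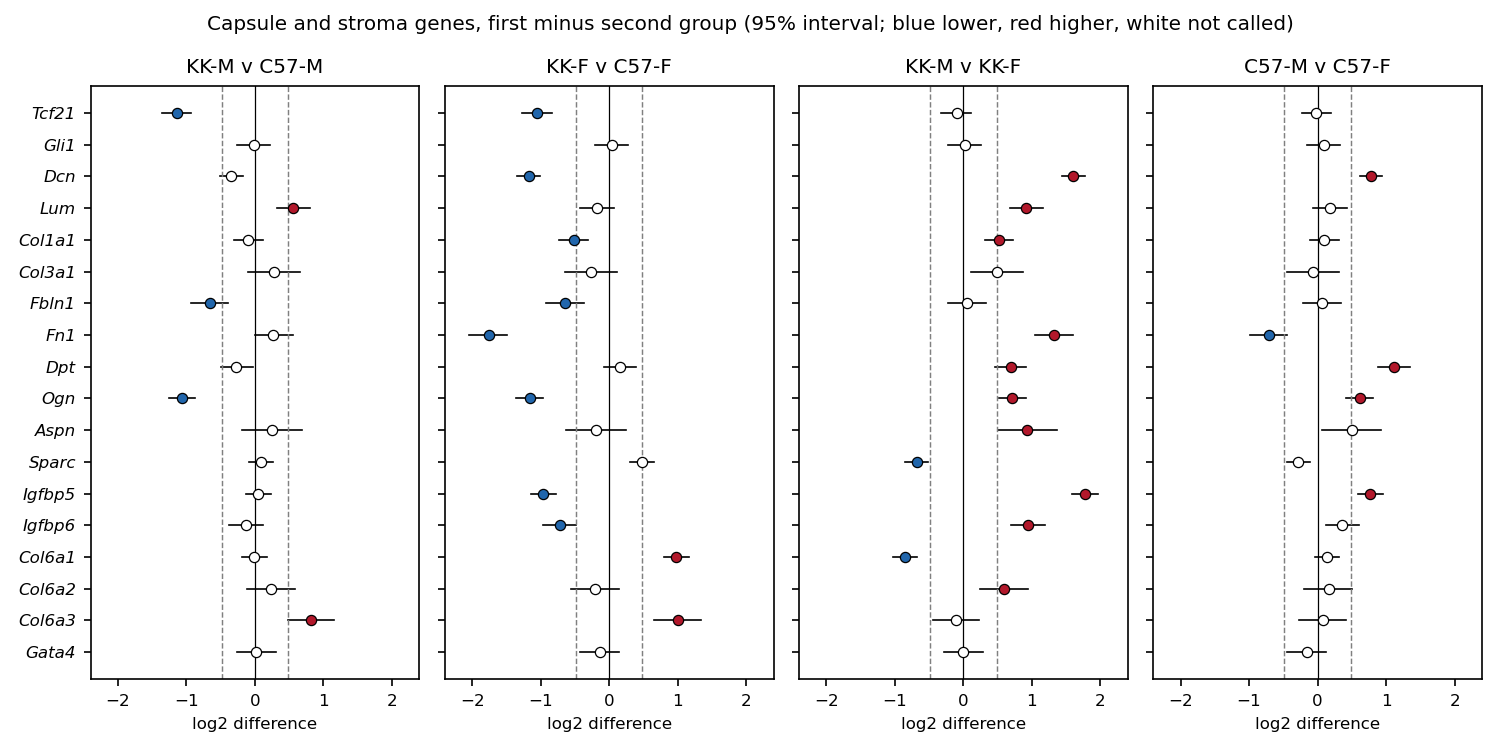
Log2 difference (horizontal axes, first group minus second) of 18 capsule and stroma genes for the strains in males and in females and for the sexes in KK and in C57, as points with 95% intervals of the limma fit, colored where called, with dashed lines at a fold of 1.4. Tcf21, Ogn and Fbln1 are blue in both strain panels, and in KK-M v KK-F 10 genes are red while Tcf21 and Gli1 are white. Aspn passed the filter through KK-M alone.

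The genes whose values ran most like each of these over the 12 arrays, by Pearson's r, are given as a description, since the arrays of a group share 1 pool and any gene with the same group differences scores high. For Tcf21 they were Irgm2, an interferon-inducible GTPase (r = 0.979), Pttg1, securin (0.97), and Gid4, a ubiquitin ligase subunit (0.97). Irgm2 differed by -1.5 between the strains in males and -1.43 in females, a strain difference of the same direction as that of Tcf21. For Rspo3 they were the complement gene C9 (0.972), the histone variant gene H2az2 (0.96) and Hoxb9 (0.952). C9 is a hepatocyte product and passed the filter through C57-M alone (mean 4.29). The mean of the hepatocyte markers given above was lower in KK within each sex, as C9 was. Between the C57 sexes that mean was higher in females, whereas C9 was lower in females (3.64). The part of hepatocytes in this likeness was not tested. Ptch1 ran most like Tmem65 (0.968), Cd300lg (0.958) and Nt5c3b (0.95), and Wnt5a like Prrx1, a mesenchymal homeobox factor (0.915), Cacng4 (0.881) and Sh3bp5 (0.874). Fzd7 ran most like Stk16 (0.907), Tomm40l (0.904) and Plekhb2 (0.864), and Gas1 like Arhgef15 (0.862), Zfyve21 (0.861) and Hecw2 (0.858). Gli1, which varied least, had the lowest best value, with Nxph3 (0.856), and then Rab15 (0.778) and Unc5b (0.771).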

How the data were processed

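As the labels and the paper's methods state, the authors deposited log2 values per probeset made with Partek by RMA (background correction, quantile normalization and median polish), and these were used as deposited. The table held 16378 probesets, 7358 with 1 gene symbol, and 7276 of the 7310 matched to RefSeq lay on chromosomes 1 and 10 to 15, so many pathway genes were not analysed here. The brightest probeset stood for a gene. Of 6986 genes, 4414 had a group mean of at least 4 and were tested with limma 3.58.1 in R 4.3.3, with 1 mean per group over 12 arrays (8 residual and 4.84 prior degrees of freedom). P-values were adjusted jointly over the 4 pairwise comparisons, and separately for the interaction and the mean effects. On simulated data, checked with 4414 genes laid out as KK-M v C57-M, the fit recovered 79.1% of genes changed 1.5-fold and 98.5% at 2-fold, with 3 false calls. The simulated noise came from the fit itself and was alike in all groups, so the low number of false calls followed from the setup. On the real arrays the residual SD was 0.204 in KK-M and 0.154 to 0.167 in the other groups. Spread between mice was not simulated. Arrays have no read depth, and their number limits precision. The 8 genes and the gene lists were chosen with earlier results of these data known. Named pathway genes were up to 4 called genes of a list with the largest difference in a comparison, those called in 3 or more, and the 3 genes most like each of the 8. Znrf3, Axin2, Notum, Lgr6, Sfrp4, Ihh and Disp1 and genes at the filter are named outside this rule. The 25 alternatives were other filters, scalings, variance models, adjustments, probeset rules and fold thresholds, a block for replicate number, fits of 2 groups, and each array left out.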

Additional observations from a re-analysis of the deposited data

Results flagged for a closer look

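The strain difference in males and that in females differed, by limma's interaction term (adjusted p under 0.05 and a size of at least 0.485 on the log2 scale), for 9 of the listed pathway and capsule genes and for 0 of the 7 tested signal genes, of which only Rspo3 had an unadjusted p under 0.05 (0.048). The value given is the strain difference in males minus that in females. Fn1, fibronectin, had 2.04 ± 0.18 (SE, adjusted p = 9.3e-06). Igfbp5, an IGF-binding protein, had 1.01 ± 0.12 (adjusted p = 0.00013), and Dcn, decorin, 0.82 ± 0.11 (adjusted p = 0.00028). Lum, lumican, had 0.74 ± 0.16 (adjusted p = 0.0074) and Igfbp6 0.59 ± 0.16 (adjusted p = 0.025). For Col6a1, a collagen VI chain, the value was -0.98 ± 0.12 (adjusted p = 0.00013). Of the Wnt and hedgehog genes, Gpc5 had -1.24 ± 0.26, which is a description only, since this gene passed the filter on low values through KK-F alone. Rnf43 had -0.61 ± 0.18 (adjusted p = 0.037) and Tnfrsf19 0.53 ± 0.12 (adjusted p = 0.011). These were 3 of 37 tested Wnt and hedgehog genes (8.11%), Gpc5 among them, and 6 of 18 capsule and stroma genes (33.3%). Over all tested genes, 13.9% were called in this comparison. The Rnf43 call was lost in 12 of 23 alternatives that could be fitted, with -0.73 to -0.45 and adjusted p from 0.011 to 0.081, and that of Igfbp6 in 5 of 24, at a fold threshold of 2 and without C57-M array 2 (0.51), C57-M array 3 (0.56), C57-F array 3 (0.49) or KK-F array 1 (0.54). For Tnfrsf19 it was lost at a fold threshold of 2 and without C57-F array 3 (0.48) or KK-M array 1 (0.47), both under the fold threshold of 1.4.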

How the results depend on the processing

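Tcf21 was called lower in KK in both sexes under all 25 alternatives, with differences of -1.24 to -1.06 in males and -1.13 to -1.02 in females, and Rspo3 in KK-M v C57-M (-0.82 to -0.63) and C57-M v C57-F (0.55 to 0.64) under all but a fold threshold of 2. None of the 8 genes and of the named pathway genes changed direction with a call. Of the 8 genes, those called numbered, for the strains in males and in females and for the sexes in KK and in C57, 2, 2, 0 and 1 as reported, 2, 4, 2 and 1 by adjusted p alone, and 1, 1, 0 and 0 at a fold of 2. For the mean strain difference they numbered 2, then 5 and 1, and for the mean sex difference 0, then 3 and 0. Renewed quantile normalization gave 1 in KK-M v KK-F (Ptch1) and 1 for the mean sex difference (Rspo3, 0.52), and only the compared groups gave 1 in KK-F v C57-F (Tcf21). Leaving out 1 array at a time gave 1 to 3 in KK-F v C57-F, the lowest without KK-F array 3, 0 to 1 for the mean sex difference, the highest without KK-M array 1 (Rspo3, 0.5), and 2 to 3 for the mean strain difference. All genes called numbered 902, 822, 831 and 312 in the 4 comparisons, 1600, 1457, 1523 and 730 by adjusted p alone, and 170, 184, 155 and 34 at a fold of 2. For the mean strain difference these were 683, 2006 and 133, for the mean sex difference 380, 1449 and 58, and for the interaction 612 and, at a fold of 2, 131. Splits into higher and lower calls moved by over 10 percentage points with renewed quantile normalization: 311 and 591 became 406 and 415 in KK-M v C57-M (417 and 430 with median centring), 321 and 510 became 497 and 312 in KK-M v KK-F (467 and 324), 168 and 444 became 292 and 257 in the interaction (316 and 245), and 204 and 176 became 267 and 143 in the mean sex difference. The cause was not tested.

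The replicate numbers did not pair the arrays (18 same-numbered pairs had correlations of -0.098 to 0.122, 3 of them over 0.1, and 36 other pairs -0.149 to 0.142). With the replicate block, 908, 824, 827 and 310 genes and 2, 2, 0 and 1 of the 8 genes were called in the 4 comparisons, and the block changed no call of these or of the named pathway genes. Only the compared groups in the fit gives no interaction or mean effects. Wif1, at 3.07 to 3.78, and genes near the filter have little signal over background, which limits what can be seen of them.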
